A study of Mus musculus with 5 samples.

Results

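The genes described here are 48 genes of the cell cycle and of DNA replication, listed by name. Of these, 47 were measured, among 19938 genes in all, and Ccnb1 was not analysed here. They comprise 9 genes of the G1 phase, 12 genes of replication and nucleotide supply, 25 genes of mitosis, and Gmnn, an inhibitor of origin licensing. They were read in pancreata of mice at postnatal day 1, on 5 Mouse Gene 1.0 ST arrays with 1 mouse per array. The control group holds 2 mice that the labels call not recombinated, and the Pdx1cKO group holds 3 mice in which Pdx1 was knocked out by Elastase-Cre, from crosses of Pdx1loxP and Elastase-Cre mice. Elastase-Cre acts in exocrine cells of the pancreas, so that islet endocrine cells can keep Pdx1, which encodes a homeodomain factor of pancreas development. The labels give neither the strain nor the sex of the mice, nor which of the alleles the controls carried. Whole organs were used, so a value is a mean over all cells of the dissected tissue, in which fewer cells of a type and less RNA per cell cannot be told apart.

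Cells that prepare to divide first make cyclins of the D and E type with their kinases Cdk4, Cdk6 and Cdk2, which release E2F factors from the retinoblastoma proteins. E2F factors switch on genes for the licensing of origins (Cdc6, Cdt1 and the Mcm2 to Mcm7 helicase), for the replication fork (Pcna) and for deoxynucleotides (Rrm1, Rrm2, Tyms), and a later wave, driven by the MuvB complex with B-Myb and Foxm1, switches on the genes of mitosis. The messenger RNAs of both waves are abundant in dividing cells and scarce in resting ones, which makes them usual readouts of proliferation in a tissue, and in newborn mice both the pancreas and blood-forming tissue hold dividing cells.

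The DNA in front of many of these genes carries some of the short motifs through which both waves are known to be read. Promoters were taken from RefSeq (GRCm38.p6), 250 bases before to 50 bases after each start site, for 38 of the 48 genes; Ccne2, Kif20a, Foxm1, Ccna2, Gmnn, Tpx2, Ccnd1, Mcm4, Ccnd2 and Aurkb had no entry. An E2F site was searched as TTTCCCGC, TTTGGCGC, TTTCGCGC or TTTGCCGC, the cell cycle genes homology region (CHR), to which MuvB binds, as TTTGAA, and the NF-Y site as CCAAT, each on both strands. The 200 bases before the start site of 2 replication genes and 3 mitosis genes are given 5′ to 3′ on the strand of the gene, with every match in capitals, since Cdc6 and Mcm7 hold an E2F match, Top2a and Ube2c a CHR match, and Cdk1 both. Cdc6, which loads the Mcm helicase onto origins, lies at chr11:98907951-98908150 (plus strand), and Mcm7, a subunit of that helicase, at chr5:138171884-138172083 (minus strand). Cdk1, the kinase that starts mitosis, lies at chr10:69352913-69353112 (minus strand), Top2a, which untangles sister chromosomes, at chr11:99024190-99024389 (minus strand), and Ube2c, which tags cyclin B for destruction, at chr2:164769729-164769928 (plus strand).
Cdc6: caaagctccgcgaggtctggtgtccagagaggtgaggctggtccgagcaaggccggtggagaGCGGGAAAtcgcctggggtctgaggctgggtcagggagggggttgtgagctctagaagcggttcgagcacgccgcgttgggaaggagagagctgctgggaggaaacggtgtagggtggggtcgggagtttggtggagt
Mcm7: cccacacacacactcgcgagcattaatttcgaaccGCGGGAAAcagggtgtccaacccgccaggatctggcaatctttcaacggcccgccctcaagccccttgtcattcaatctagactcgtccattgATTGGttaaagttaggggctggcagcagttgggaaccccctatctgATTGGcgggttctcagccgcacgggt
Cdk1: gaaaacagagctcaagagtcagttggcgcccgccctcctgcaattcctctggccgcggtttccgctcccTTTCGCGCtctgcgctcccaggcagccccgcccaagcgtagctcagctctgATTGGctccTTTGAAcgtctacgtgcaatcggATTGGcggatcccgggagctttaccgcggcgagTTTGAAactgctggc
Top2a: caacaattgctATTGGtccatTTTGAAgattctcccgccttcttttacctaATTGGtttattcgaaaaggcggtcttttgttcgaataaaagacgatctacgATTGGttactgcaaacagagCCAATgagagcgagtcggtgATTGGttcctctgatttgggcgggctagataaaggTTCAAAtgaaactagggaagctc
Ube2c: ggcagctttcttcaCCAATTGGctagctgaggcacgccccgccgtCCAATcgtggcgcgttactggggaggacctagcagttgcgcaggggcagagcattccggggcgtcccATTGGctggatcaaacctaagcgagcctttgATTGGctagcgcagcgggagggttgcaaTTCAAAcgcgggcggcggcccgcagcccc
Counted from the start site, Cdc6 held an E2F match at -138 and Mcm7 at -165. Top2a held CHR matches at -179 and -23 and Ube2c at -29, and neither held an E2F match in this window. Cdk1 held an E2F match at -131 together with CHR matches at -71 and -15.

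The motifs were spread unevenly over the genes. An E2F match was present in 6 of 11 replication genes with a promoter (54.5%), in 1 of 21 mitosis genes (4.76%, Cdk1), in 1 of 6 G1 genes and in 2.6% of all 27025 genes with a promoter. A CHR match was present in 1 replication gene (9.09%, Mcm2), in 16 mitosis genes (76.2%), in 0 of the 6 G1 genes and in 20.2% of all genes. CCAAT was present in 72.7% of the replication genes, 90.5% of the mitosis genes, 33.3% of the G1 genes and 41.1% of all genes. In the second window listed for Mcm7 the last base of an E2F match was also the first base of a CCAAT match. These matches describe letters in a window and were not tested against the array values.

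Some arrays stood apart, and this bears on all that follows. The targeted gene itself, Pdx1, read 67.9 and 112.7 in controls 1 and 2 against 48.4, 48.4 and 42.9 in Pdx1cKO mice 1, 2 and 3, so the groups did not overlap (log2 difference -0.91, limma adjusted p = 0.385). The label pancreas was borne out by acinar markers that were bright in all 5 arrays, such as Cpa1 (1583 to 10410) and Ctrb1 (4152 to 12080). Others fell further, such as Ctrl, at 9140 and 4525 in the controls against 79.8, 109.9 and 265.2 in the Pdx1cKO mice. Ptf1a was dim in both groups, at 74.3 and 55.7 in the controls against 42.3, 43.6 and 47.2. All 10 measured acinar markers were lower in each Pdx1cKO mouse than in both controls, against 11.7% of all genes. Control 2 also carried stomach transcripts, with a summed intensity of 9 stomach markers of 12055 against 455 to 676 in the other arrays. Markers of liver and of blood-forming cells were higher in the Pdx1cKO arrays and are given with the results they accompany. Xist and Y-linked genes gave a female pattern in Pdx1cKO mice 1 and 2 and a male pattern in the other 3 mice.

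Most cell cycle genes had higher mean levels in the Pdx1cKO pancreata than in the controls, with a median log2 difference of 0.51 for replication genes and 0.28 for mitosis genes, an order that turned with the control used. The log2 difference was above 0 in 44 of the 47 genes, below 0 in Ccnd1 and Ccnd2, and exactly 0 in Ttk, against 47.7% of all genes above 0. Its median was 0.29, with a range from -0.03 (Ccnd1) to 0.69 (Rrm2), and the median over all genes was -0.0012. In 32 genes (68.1%) each of the 3 Pdx1cKO mice lay above both controls, where 12.0% of all genes did so, and in 0 genes did all Pdx1cKO mice lie below both controls, against 11.7%. Among genes brighter than the median gene, where 41 of the 47 lie, the counts were 30 of 41 without overlap against 18.3%, and 18 of 41 at an unadjusted p of 0.05 against 8.46%. No member passed limma at an adjusted p of 0.05 in either direction, as 0.0% of all genes did in each direction. At an unadjusted p of 0.05, 19 members were higher (40.4%, against 5.29% of all genes) and 0 lower (against 5.04%), and the lowest adjusted p of a member was 0.202. The t-test of the study's methods also called 0 members after adjustment, and 14 higher at an unadjusted p of 0.05, against 3.68% of all genes. The count of 19 was smaller under other fits: 2 with array weights (1.21% of all genes), 4 with a covariate for the sex pattern (6.33%) and 9 with the replicate number as a block (4.31%). For a single gene, 2 mice against 3 allow no exact permutation p below 0.1.

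**Figure D1:**
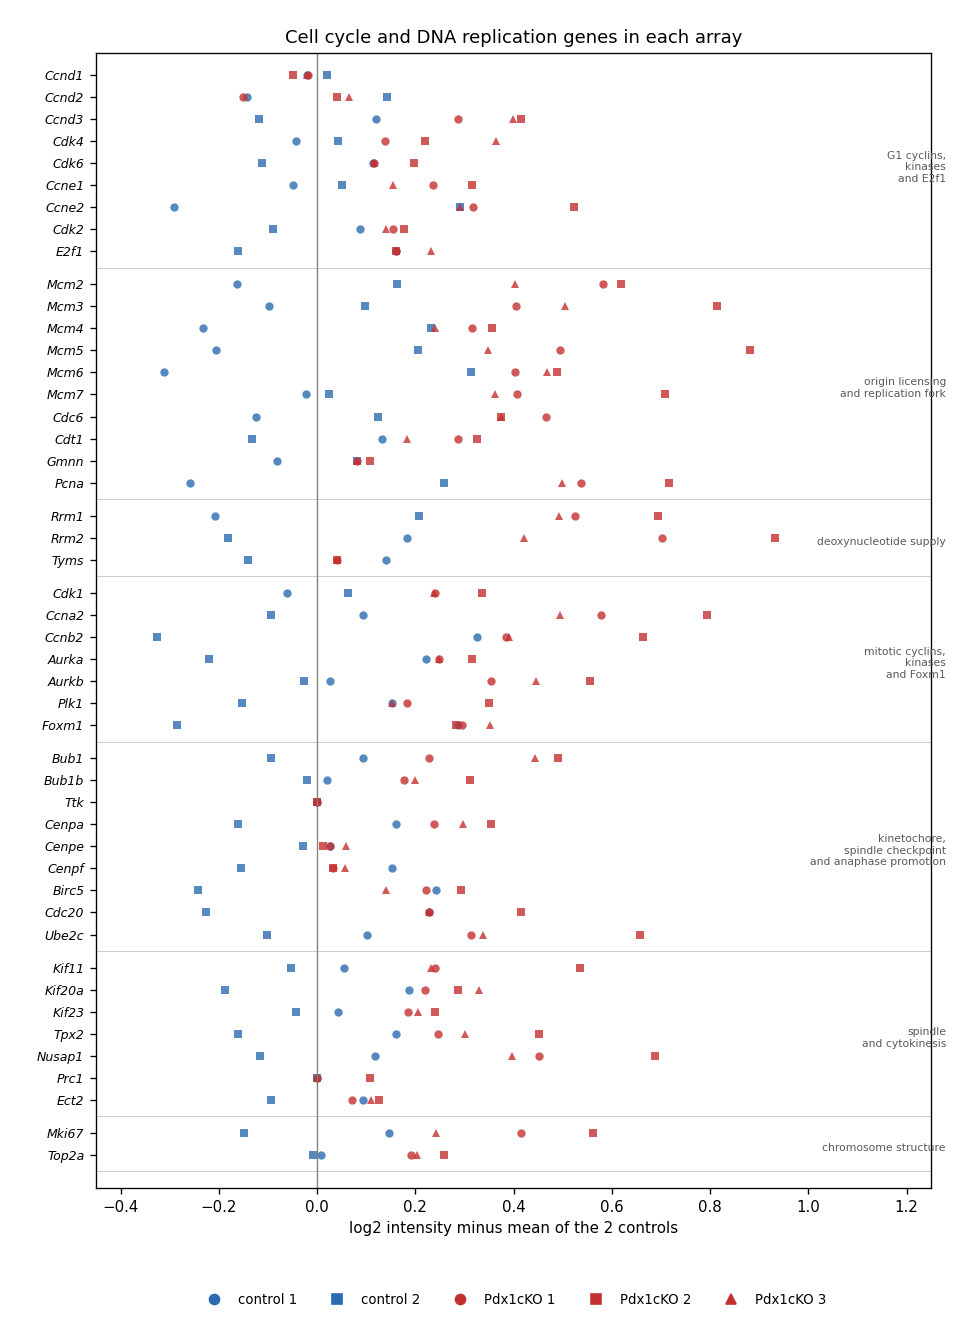
Log2 intensity of each of the 47 measured genes (vertical axis, grouped by role) in each array, minus that gene's mean over the 2 controls (horizontal axis); each point is 1 mouse, blue for control and red for Pdx1cKO. In 32 genes all 3 red points lie to the right of both blue points, and control 2 (blue squares) lies to the right of control 1 for all 6 Mcm genes but to its left for 22 of 25 mitosis genes.

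All 6 subunits of the Mcm helicase, Mcm2 to Mcm7, were above both controls in every Pdx1cKO mouse, by log2 differences of 0.31 (Mcm4) to 0.57 (Mcm3 and Mcm5). Mcm2 had intensities of 166.5 and 208.7 in the controls against 279.0, 286.3 and 246.4 in the Pdx1cKO mice. All 3 Pdx1cKO values were above the higher control, control 2 (1.45-fold, log2 0.53, standard error 0.135, adjusted p = 0.353). Mcm7 read 216.3 and 223.5 in the controls against 291.2, 359.4 and 282.6 in the Pdx1cKO mice. The controls lay close together and Pdx1cKO mouse 2 stood highest (1.41-fold, log2 0.49, standard error 0.128, adjusted p = 0.361).

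Cdc6 had intensities of 48.2 and 57.3 in the controls against 72.6, 68.1 and 68.1 in the Pdx1cKO mice, again without overlap (1.32-fold, log2 0.41, standard error 0.0911, adjusted p = 0.316). Its values in Pdx1cKO mice 2 and 3 were identical. An exact tie between any of the 5 arrays was present in 66.0% of all genes and in 14 of the 47 members. Pcna, the sliding clamp of the DNA polymerases, read 435.6 and 623.8 in the controls against 756.8, 857.1 and 736.4 in the Pdx1cKO mice. Control 2 was well above control 1, yet below each Pdx1cKO mouse (1.50-fold, log2 0.58, standard error 0.191, adjusted p = 0.455). Of the other licensing genes, Cdt1, the partner of Cdc6, did not overlap (log2 0.27), and its inhibitor Gmnn, dim at 27.3 to 31.1, did (log2 0.09). In all, 9 of these 10 genes were higher without overlap, against 12.0% of all genes, and their median log2 difference was 0.47.

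The genes of deoxynucleotide supply were split, with a median log2 difference of 0.57, and of 0.36 without control 1. Rrm2, the small subunit of ribonucleotide reductase made in S phase, had intensities of 170.1 and 132.0 in the controls against 243.8, 286.0 and 200.6 in the Pdx1cKO mice. It had the largest log2 difference of the 47 genes (1.61-fold, log2 0.69, standard error 0.212, adjusted p = 0.426), and unlike the Mcm genes it was higher in control 1 than in control 2. Rrm1, the large subunit, read 270.9 and 361.3 in the controls against 450.1, 506.0 and 440.1 in the Pdx1cKO mice, also without overlap (1.48-fold, log2 0.57, standard error 0.158, adjusted p = 0.38). Tyms, which makes thymidylate, was listed at 161.4 in all 3 Pdx1cKO mice, between the controls at 173.1 and 142.3 (log2 0.04, adjusted p = 0.842). The 3 Pdx1cKO arrays held the same value for 2 members, Tyms and Ttk, and for 15.7% of all genes.

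Genes of the G1 phase had a median log2 difference of 0.18, and 5 of 9 were higher without overlap, against 12.0% of all genes. The D-type cyclins, which open the G1 phase, differed among themselves. Ccnd3 had intensities of 589.0 and 498.9 in the controls against 660.7, 723.1 and 714.2 in the Pdx1cKO mice, without overlap (1.29-fold, log2 0.37, standard error 0.094, adjusted p = 0.356). Ccnd1 read 452.5 and 465.3 against 453.2, 443.1 and 452.5, and Ccnd2 396.1 and 482.4 against 393.6, 449.7 and 457.4. For both, the groups overlapped and the log2 differences were -0.03 and -0.01, with 95% intervals of -0.09 to 0.03 and -0.37 to 0.34. Cdk4, a kinase partner of these cyclins, read 1693 and 1796 in the controls against 1919, 2030 and 2245 in the Pdx1cKO mice (1.18-fold, log2 0.24, standard error 0.0829, adjusted p = 0.478). Ccne1, the cyclin of Cdk2 at the start of S phase, read 108.6 and 116.5 against 132.4, 139.9 and 125.1 (1.18-fold, log2 0.23, standard error 0.0648, adjusted p = 0.38). Neither Cdk4 nor Ccne1 overlapped between the groups. E2f1, an activating E2F factor, stood at 118.0 in control 1 and in Pdx1cKO mice 1 and 2, and at 94.6 in control 2.

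**Figure D2:**
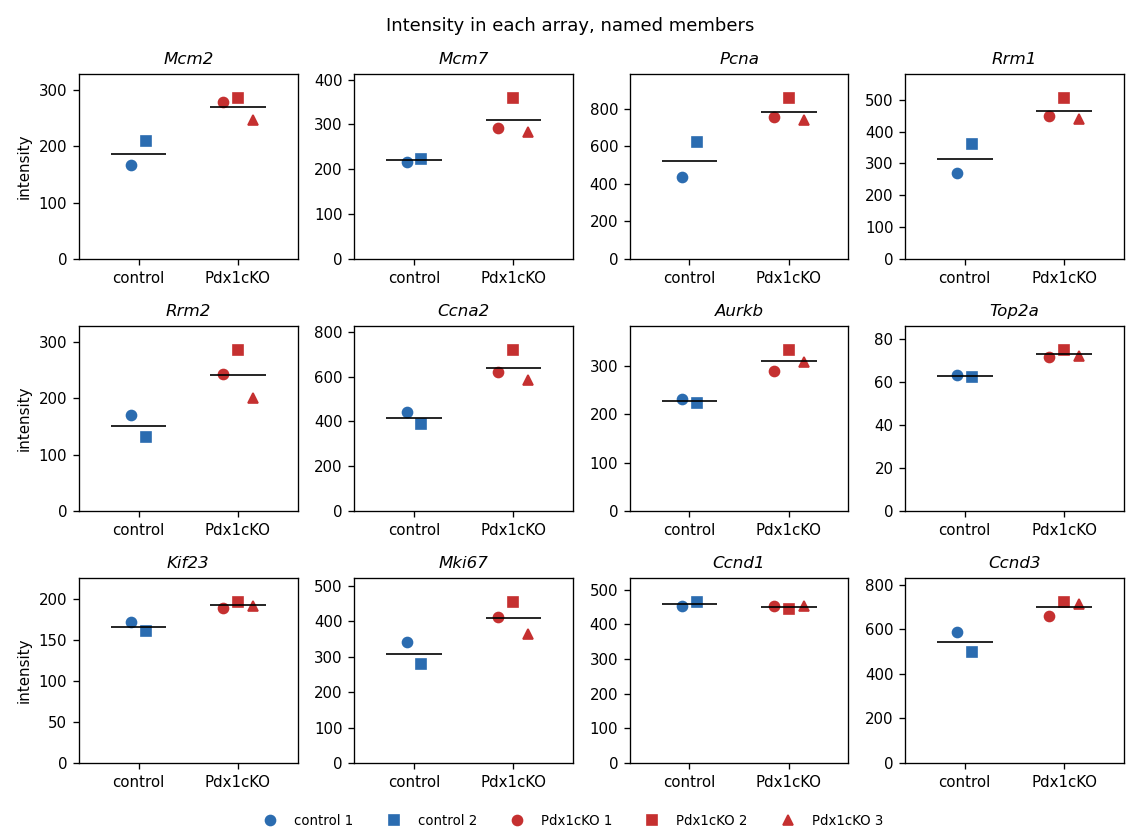
Intensity (linear axis from 0) in each of the 5 arrays for 12 of the genes; each point is 1 mouse and each bar the mean of its group, taken on the log2 scale, and Top2a is the average of its 2 probe sets. The 3 Pdx1cKO mice lie above both controls in all 12 genes except Ccnd1, where the groups overlap.

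Cyclins and kinases of mitosis had a median log2 difference of 0.31, and 5 of 7 were higher without overlap, against 12.0% of all genes. Their median was 0.49 without control 1 and 0.155 without control 2. Ccna2, the cyclin of S phase and of entry into mitosis, had intensities of 443.9 and 389.7 in the controls against 620.3, 720.6 and 585.9 in the Pdx1cKO mice. All Pdx1cKO values were above both controls (1.54-fold, log2 0.62, standard error 0.122, adjusted p = 0.283). Aurkb, the kinase that corrects the attachment of chromosomes to the spindle, read 231.1 and 222.9 against 290.2, 333.6 and 309.1 (1.37-fold, log2 0.45, standard error 0.0707, adjusted p = 0.236). Cdk1 read 307.9 and 335.5 against 379.2, 405.4 and 378.8 (1.21-fold, log2 0.27, standard error 0.057, adjusted p = 0.298). Neither gene overlapped, and Cdk1 was the only one of the 25 mitosis genes that was higher in control 2 than in control 1. Plk1, a kinase of spindle assembly, and Foxm1, the factor of the mitotic wave, overlapped with control 1, at log2 differences of 0.23 and 0.31.

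At the kinetochore and in the spindle checkpoint, 4 of 9 genes were higher without overlap, against 12.0% of all genes. The median log2 difference was 0.23, and 0.46 without control 1 and 0.06 without control 2. Bub1 and Bub1b, which hold back anaphase until all chromosomes are attached, read 80.5 and 70.7 against 88.3, 106.0 and 102.6, and 115.1 and 111.9 against 128.3, 140.9 and 130.3. Both were without overlap (log2 0.39 and 0.23, standard errors 0.114 and 0.0513, adjusted p = 0.406 and 0.316). Ube2c read 205.0 and 178.2 against 237.8, 301.7 and 241.5 (1.35-fold, log2 0.44, standard error 0.147, adjusted p = 0.466). Cenpa, the histone of the centromere, also did not overlap (log2 0.30), while Cenpe, Cenpf, Birc5, Cdc20 and Ttk did. Ttk was listed at 48.1 in all 5 arrays.

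Of the genes of the spindle and of cytokinesis 5 of 7 were higher without overlap, against 12.0% of all genes. Their median log2 difference was 0.28, and 0.17 without control 2. Nusap1, which bundles spindle fibres, read 146.2 and 124.3 in the controls against 184.4, 217.2 and 177.6 in the Pdx1cKO mice (1.43-fold, log2 0.51, standard error 0.131, adjusted p = 0.355). Kif23, a motor of the midbody, read 171.2 and 161.3 against 188.8, 196.4 and 191.5 (1.16-fold, log2 0.21, standard error 0.036, adjusted p = 0.245), and Kif11, which pushes the spindle poles apart, 152.4 and 141.5 against 173.3, 212.8 and 172.3 (1.26-fold, log2 0.34, standard error 0.123, adjusted p = 0.514). In all 3, every Pdx1cKO mouse lay above both controls. Mki67, the usual marker of cycling cells, which coats mitotic chromosomes, read 341.5 and 278.5 against 411.4, 455.5 and 365.0 (1.33-fold, log2 0.41, standard error 0.147, adjusted p = 0.506). Top2a, measured by 2 probe sets, had a bright one at 215.8 and 204.2 against 264.2, 296.0 and 270.5 (log2 0.40) and a dim one at 18.4 to 19.4 in all arrays, near the lowest intensity of the arrays. Averaged, they gave a log2 difference of 0.22 with the smallest adjusted p of the members, 0.202, and neither Mki67 nor the averaged Top2a overlapped between the groups.

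How far replication genes exceeded mitosis genes depended on which control was used, and the controls differed in opposite ways for these classes. Control 2 was above control 1 in 9 of 12 replication genes, with a median difference of 0.29 on the log2 scale, and in all 6 Mcm genes (median 0.37). It was below control 1 in 22 of 25 mitosis genes, with a median difference of -0.20. Over all genes 38.6% were higher and 48.4% lower in control 2, with a median of 0.0. Against control 2 alone, the median log2 difference was 0.37 for replication and 0.46 for mitosis. Against control 1 alone, it was 0.60 for replication and 0.15 for mitosis. Replication minus mitosis was thus 0.23 with both controls, -0.09 without control 1 and 0.45 without control 2. Each class kept a positive median against either control, but the order of the classes turned. Relative to the mean of the controls, the replication median minus the mitosis median was 0.21, 0.32 and 0.15 in Pdx1cKO mice 1, 2 and 3, and -0.245 and 0.245 in controls 1 and 2, which mirror each other by construction. The part of the stomach transcripts of control 2 in this was not tested.

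**Figure D3:**
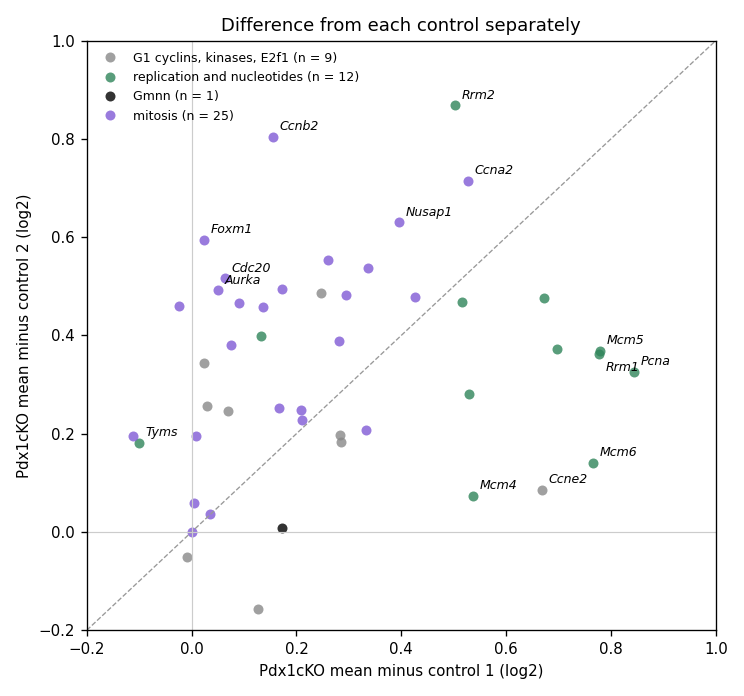
For each gene, the mean of the 3 Pdx1cKO mice minus control 1 (horizontal axis) against the same mean minus control 2 (vertical axis), both on the log2 scale; each point is 1 gene and the diagonal marks genes that are equal in both controls. Mitosis genes lie mostly above the diagonal (22 of 25 are lower in control 2) and replication genes mostly below it (9 of 12 are higher in control 2).

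Among the settings run, single members were called only when a control was left out. With control 1 left out, limma called 7 members higher at an adjusted p of 0.05 (Aurka, Cdk2, Cenpf, Foxm1, Kif20a, Kif23 and Tyms, against 8.04% of all genes) and 0 lower (against 8.94%). With control 2 left out, it called 4 higher (Cdc6, Gmnn, Mcm4 and Mcm6, against 4.99%) and 1 lower (Tyms, against 10.4%). Both fits called 1 gene in common, Tyms, in opposite directions. These fits take the spread from the Pdx1cKO mice, whose median SD over the members was 0.0736, and assume it for the remaining control. The median SD between the controls was 0.175. Tyms had the same value in all 3 Pdx1cKO mice, an SD of 0.0. Aurka, Cenpf, Cdc6 and Gmnn each had an exact tie between Pdx1cKO mice, which lowers the spread that these fits use.

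Among the Pdx1cKO mice most members shared the highest array, but not the lowest. Mouse 2 was the highest of the 3 in 36 of 47 members, against 23.1% of all genes, in 10 of 12 replication genes and in 20 of 25 mitosis genes. Mouse 3 was the lowest in 18 of 47 members (23.9% of all genes), 8 of them among the 12 replication genes, and mouse 1 in 16 (25.2%), 11 of them among the 25 mitosis genes. Mouse 1 was highest in 2 members (14.2%), mouse 3 highest in 7 (27.1%) and mouse 2 lowest in 3 (20.1%). Mice 1, 2 and 3 were above both controls in 35, 39 and 36 members, against 20.6%, 23.8% and 26.7% of all genes.

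The signal of blood-forming cells varied over the same arrays. The summed intensity of 13 markers of granulocytes and their progenitors, such as the azurophil granule proteins Mpo and Elane, was 787 and 703 in the controls against 4215, 5165 and 2087 in the Pdx1cKO mice. That of 10 erythroid markers, such as the heme synthesis enzyme Alas2, was 635 and 620 in the controls against 2500, 3583 and 1276 in the Pdx1cKO mice. Higher without overlap were all 13 granulocyte and 9 of 10 erythroid markers, against 12.0% of all genes. Mouse 2 was the highest Pdx1cKO mouse in 11 of 13 granulocyte and 10 of 10 erythroid markers, and mouse 3 the lowest in all of both lists. Mouse 2 was thus highest both in these lists and in most cell cycle genes. Mouse 3 was lowest in 8 of 12 replication genes and in 7 of 25 mitosis genes, a difference that was not tested. Early B cell markers gave sums of 309 and 298 against 526, 610 and 441, platelet markers 582 and 534 against 872, 1109 and 676, and macrophage markers 2511 and 1766 against 1993, 2052 and 1999. The liver list had the same order of the Pdx1cKO mice as the granulocyte list, with sums of 5961 and 7717 against 38221, 45751 and 18634.

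About the mean of the controls on the log2 scale, controls 1 and 2 stood at 0.01 and -0.01 for the granulocyte list and at 0.085 and -0.085 for the erythroid list. They stood at -0.14 and 0.14 for the replication genes. Stomach (-1.70 and 1.70), liver (-0.275 and 0.275), duct (-0.17 and 0.17), islet (-0.013 and 0.013) and platelet markers (-0.007 and 0.007) had the same sign. For the mitosis genes they stood at 0.10 and -0.10. The same sign was present in mesenchyme (0.24 and -0.24), endothelium (0.21 and -0.21), macrophage (0.25 and -0.25) and acinar markers (0.385 and -0.385). The granulocyte and erythroid lists and the early B cell list (0.015 and -0.015) also had that sign. Acinar markers gave sums of 78957 and 51565 in the controls against 10446, 12583 and 18125 in the Pdx1cKO mice. Mesenchyme markers were at 22876 and 17002 against 24225, 22450 and 25435, and endothelial markers at 2384 and 1697 against 2465, 2597 and 3067. Higher without overlap were 5 of 9 mesenchyme and 5 of 8 endothelial markers, against 12.0% of all genes. Their median log2 differences were 0.28 and 0.40, beside 0.29 for the cell cycle genes. Mouse 2 was lowest in all 9 mesenchyme markers, while it was highest in most cell cycle genes. Lower without overlap were 8 of 9 islet endocrine markers (median log2 difference -0.57) and 4 of 6 duct and trunk markers (median -0.73), against 11.7% of all genes. In the limma fit with all 5 mice, no marker of these lists passed an adjusted p of 0.05. The part of any of these cell types in the cell cycle signal was not tested.

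**Figure D4:**
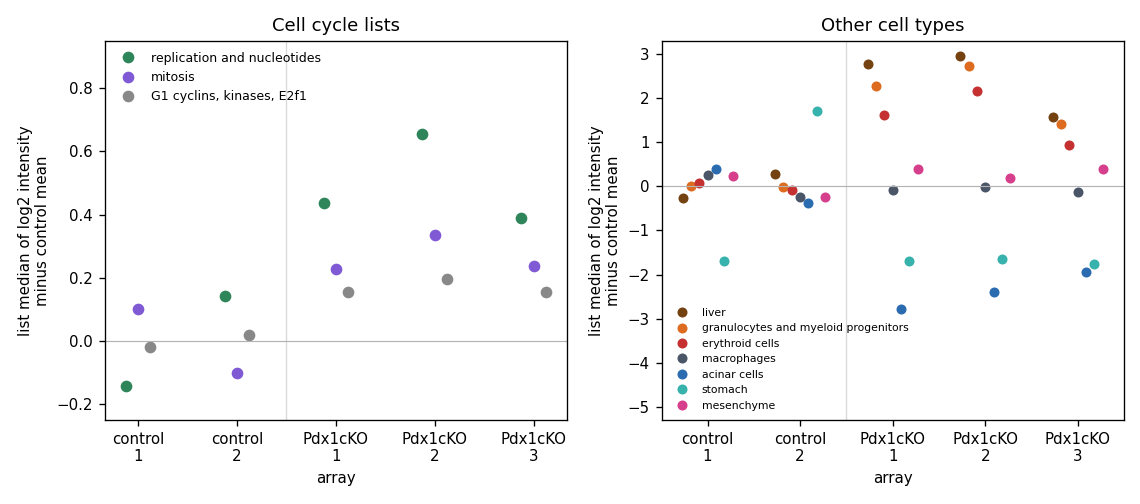
Median over each list of log2 intensity minus the control mean, by array, for the cell cycle classes (left) and for markers of other cell types (right, on a wider axis); each point is 1 list in 1 array. In Pdx1cKO mice 1, 2 and 3 the granulocyte list stood at 2.26, 2.73 and 1.40 and the erythroid list at 1.61, 2.15 and 0.93, while the replication genes stood at 0.44, 0.66 and 0.39.

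Further genes of the same pathways also had mostly positive differences, with smaller medians than the classes above. Of 35 further replication genes (origin recognition, polymerases, clamp loaders, ligase and chromatin assembly), 12 (34.3%) were higher without overlap against 12.0% of all genes, 0 were lower, and 7 (20.0%) were higher at an unadjusted p of 0.05 against 5.29%. Their median log2 difference was 0.14, and 0.04 without control 1. Rfc4, a subunit of the loader of Pcna, read 147.8 and 146.2 in the controls against 187.8, 216.5 and 195.2 in the Pdx1cKO mice (1.36-fold, log2 0.44, adjusted p = 0.239). Rpa2, which covers single-stranded DNA, read 129.0 and 131.2 against 147.8, 150.7 and 146.0 (1.14-fold, log2 0.19, adjusted p = 0.183). For both the controls nearly coincided and the groups did not overlap. Tk1, the thymidine kinase of S phase, and Rfc2, another clamp loader subunit, did not overlap either, at log2 differences of 0.31 and 0.07. Control 2 was above control 1 in 26 of these 35 genes.

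Of 38 further mitotic genes, 18 (47.4%) were higher without overlap against 12.0% of all genes, 0 were lower, and 11 (28.9%) were higher at an unadjusted p of 0.05 against 5.29%. Their median was 0.17, and 0.10 without control 2. Knl1, the scaffold of the outer kinetochore, read 111.0 and 114.6 against 144.2, 141.8 and 153.8 (1.30-fold, log2 0.38, adjusted p = 0.197). Nuf2, which binds spindle fibres at the kinetochore, read 59.9 and 72.9 against 87.1, 98.0 and 92.7 (1.40-fold, log2 0.49, adjusted p = 0.319). Neither overlapped, nor did the motor Kif15 (log2 0.21) and the condensin subunit Ncapd2 (log2 0.34). Control 2 was below control 1 in 25 of the 38.

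The brakes of the cycle were mixed. Of 6 inhibitors of cyclin-dependent kinases 3 were higher without overlap and 0 lower, against 12.0% and 11.7% of all genes. Their median was 0.07, and 0.11 without control 1. Cdkn1c, which encodes p57, read 518.0 and 639.9 in the controls against 820.9, 823.0 and 1018 in the Pdx1cKO mice (1.53-fold, log2 0.62, adjusted p = 0.356). Unlike most cell cycle genes it was highest in Pdx1cKO mouse 3. Cdkn2c and Cdkn2d, inhibitors of Cdk4 and Cdk6, also did not overlap (log2 0.50 and 0.17), while Cdkn2b, of the same family, did (log2 -0.36). In the Rb and E2f families 2 of 15 genes (13.3%) were higher without overlap, close to the 12.0% of all genes. Their median was 0.09, and 0.06 without control 1 and 0.21 without control 2. E2f2, an activating E2F factor, read 56.0 and 73.5 in the controls against 133.1, 189.7 and 101.3 in the Pdx1cKO mice (2.13-fold, log2 1.09, standard error 0.333, adjusted p = 0.421). Mouse 2 was its highest and mouse 3 its lowest Pdx1cKO mouse. The granulocyte, erythroid, early B cell, platelet and liver sums also had that order, and the part of those cells was not tested. E2f8, a repressive E2F factor, read 69.9 and 83.0 against 101.5, 128.4 and 101.0 (log2 0.53, adjusted p = 0.414). E2f4, which helps to hold cell cycle genes silent in resting cells, and Rbl1, of the Rb family, overlapped, at log2 0.24 and 0.28. No gene of these 4 further lists passed an adjusted p of 0.05.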

How the data were processed

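The 5 samples were pancreata of separate mice, each read on its own 1-colour Mouse Gene 1.0 ST array. The authors deposited linear intensities per probe set, made with GeneSpring GX 12.1 (named in the paper and the submitters' processing notes). How background, normalization and probe summary were handled is not given in the sources used here, and no detection calls were used. Array medians of 61.0 to 61.9 show that the intensities had been scaled to each other. Of 28853 probe sets, the 21789 with 1 symbol in the platform annotation were used, 1621 have several and 5443 are unnamed here; 21698 matched RefSeq (GRCm38.p6) through Entrez gene. After log2 without a pseudocount, the probe sets of 999 genes were averaged, leaving 19938 genes. The number of columns of other series was 0.

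Pdx1cKO was compared with control by limma 3.58.1 in R 4.3.3 (lmFit, eBayes, Benjamini-Hochberg adjustment over all genes, 0.05). p-values measure the spread between these mice, whose number limits the precision. On simulated data with 200 of the 19938 genes altered, this step recovered 50.0% of log2 changes of 0.5, 68.0% of 1, 94.0% of 2 and 98.0% of 4, with 2 false calls. The simulated noise was drawn independently for each gene and array, without signals of other tissues shared by many genes. These shares therefore do not carry over to the real arrays. There the same fit called 0 genes, and the acinar marker Ctrl, at a log2 difference of -5.60, had a limma adjusted p of 0.204. Python 3.11.15 with pandas 2.3.3 was used for tables and promoters.

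Members, gene lists and tests were chosen with earlier results of these data known. Values by array are given for the 3 genes of lowest p in each role list, for shorter lists whole, for Mki67, Pcna and Mcm2, and, added after their values were seen, for Ccnd1, Ccnd2, E2f1 and Ttk. Each further list names its 4 genes of lowest p (Cdc25c, Dbf4, Rpa1, Rbl2 and E2f5 were added after their values were seen), and marker lists only examples.

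Alternatives were scaling to one median, quantile normalization, dropping dim genes (below the median or the lower quartile), the brightest probe set, trended robust eBayes, array weights, Student's test as the study's methods name it, the replicate number as a block, a sex pattern covariate, and leaving out each mouse.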

Additional observations from a re-analysis of the deposited data

How the results depend on the processing

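Signs were followed under the 15 alternatives for 64 genes, namely the measured members, the 4 genes of lowest p of each further list, and Pdx1. No log2 difference of these changed sign, except for Ccnd2 (0.065 with the sex covariate, -0.157 to 0.127 on leaving out a mouse), Tyms (-0.002 with quantile normalization, -0.101 to 0.182), Cenpf (-0.112 to 0.195) and Birc5 (-0.024 to 0.46). Members higher at an unadjusted p of 0.05 numbered 2 with array weights, which gave each control a weight of 0.21, 9 with the replicate number as a block and 4 with the sex covariate (1.21%, 4.31% and 6.33% of all genes), and 11 to 22 on leaving out a mouse. At an adjusted p, leaving out a mouse gave 0 to 7 higher and 0 to 1 lower, and at an unadjusted p 0 to 2 lower. Members lower without overlap numbered 2 with median scaling (Ccnd1 and Ttk), 1 with quantile normalization and 0 to 2 on leaving out a mouse. Leaving out a mouse moved the median of the members between 0.209 and 0.362, that of the mitosis genes between 0.155 and 0.460, and replication minus mitosis between -0.094 and 0.450, the extremes being those without a control. The causes were not tested. The replicate number was not taken to pair the mice. Deviations of same-numbered mice from their group means correlated at 0.0325 and -0.00297. With 2 controls these deviations mirror each other, so they cannot show whether same-numbered mice shared a litter or a day. The Pdx1 log2 difference was -1.28 without control 1. That fit leaves only control 2, which carried stomach transcripts and read Pdx1 at 112.7, against 67.9 in control 1. Of the further lists, the log2 differences without control 1 and without control 2 were 0.19 and 0.24 for Kif15 and 0.236 and 0.109 for Cdc25c. They were 0.11 and 0.278 for Dbf4 and 0.108 and 0.292 for Rpa1. Those of Rbl2 (0.34 and -0.213) and E2f5 (0.032 and -0.02) differed in sign. Each of these genes had an exact tie between Pdx1cKO mice. Signal over background is unknown, so small differences of dim genes such as Gmnn have no order.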
